A study of Mus musculus with 24 samples.

Results

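The regions described here are 100 bp tiles of the mouse genome that are rich in CpGs but do not lie at a gene start. A tile was taken when it was measured in liver, brain and heart, held 7 or more CpGs and fewer than 50 repeat-masked (soft-masked) bases in the mm10 sequence, and lay more than 2 kb from the transcription start of every curated RefSeq transcript. In all, 15637 of the 758685 tiles common to the 3 tissues met these conditions, or 2.06%. They were 20.9% of the 74676 CpG-dense tiles, the remaining 59039 being at or within 2 kb of a start. Of the 15637 tiles, 9740 were intragenic and 5897 intergenic. The intragenic tiles comprised 4054 in coding exons, 2639 in the last exon of a transcript, 2961 in introns and 86 in other exons. A further 1598 tiles met the sequence and distance conditions but were missing from at least 1 tissue, 1430 of them from liver.

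The samples were liver from 12 mice and brain and heart from 6 mice each, all of the inbred strain C57Bl/6J at 24 weeks of age, with no treatment or induced mutation and with both sexes in every tissue. Each sample gave 1 library of enhanced reduced representation bisulphite sequencing (RRBS), which cuts DNA at CCGG sites and reads the share of methylated cytosines at the CpGs nearby. By the mouse numbers in the sample labels, the same 6 mice gave brain and heart, and they were among the 12 liver mice. The columns of values name the tissue but neither the mouse nor its sex. Males and females were therefore not separated, and the mice that gave more than 1 tissue could not be paired. A tissue's level is the mean over its libraries, in percent of methylated CpG calls. These were whole tissue pieces, so a middle level in every cell and a mixture of methylated and unmethylated cells cannot be told apart.

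Most of the mouse genome is poor in CpGs, because methylated cytosines mutate readily to thymines. CpG-dense DNA persists mainly where it stays free of methylation in the germline, and most of it forms CpG islands at gene promoters. Islands away from annotated starts, sometimes called orphan islands, can hold unannotated promoters or enhancers, whereas CpG-rich coding sequence and transcribed gene bodies are generally methylated. CpG-dense tiles away from starts therefore bring together sequence of quite different kinds.

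The following tiles are from runs described later, and each had the largest difference between 2 tissues among the called tiles of its run. Each is printed 5′ to 3′ on the forward strand of mm10, in lower case, with its CpGs in capitals. They are shown because all are CpG-dense, with 7 to 14 CpGs, while the tissues in which they are methylated differ.
Zmiz1 intron, chr14:25607801-25607900: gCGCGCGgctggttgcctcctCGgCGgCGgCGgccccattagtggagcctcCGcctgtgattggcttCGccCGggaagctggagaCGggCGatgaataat
Fbrsl1 last exon, chr5:110363501-110363600: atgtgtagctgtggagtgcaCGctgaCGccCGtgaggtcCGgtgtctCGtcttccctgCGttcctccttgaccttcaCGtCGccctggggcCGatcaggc
Zfpm1 last exon, chr8:122336301-122336400: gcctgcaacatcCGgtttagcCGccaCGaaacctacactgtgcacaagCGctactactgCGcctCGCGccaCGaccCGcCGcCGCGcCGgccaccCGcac
Sh2b3 coding exon, chr5:121828701-121828800: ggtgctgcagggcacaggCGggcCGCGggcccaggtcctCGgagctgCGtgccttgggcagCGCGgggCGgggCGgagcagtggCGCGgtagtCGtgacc
Sema6b last exon, chr17:56124001-56124100: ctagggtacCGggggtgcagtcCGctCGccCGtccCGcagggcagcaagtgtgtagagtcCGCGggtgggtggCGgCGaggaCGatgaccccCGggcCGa
Dchs1 coding exon, chr7:105762701-105762800: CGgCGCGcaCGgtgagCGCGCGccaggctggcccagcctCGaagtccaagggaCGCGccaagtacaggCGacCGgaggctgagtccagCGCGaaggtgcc
Sipa1 coding exon, chr19:5654001-5654100: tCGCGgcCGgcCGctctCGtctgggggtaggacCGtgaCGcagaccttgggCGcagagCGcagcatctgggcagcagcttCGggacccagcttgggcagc
Disp3 coding exon, chr4:148271601-148271700: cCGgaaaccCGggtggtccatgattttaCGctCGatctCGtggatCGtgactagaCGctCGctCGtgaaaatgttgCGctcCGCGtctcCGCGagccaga
Intergenic, nearest start Foxp4, chr17:47936301-47936400: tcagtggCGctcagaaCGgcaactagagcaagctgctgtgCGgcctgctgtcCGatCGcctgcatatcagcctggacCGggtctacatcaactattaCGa
Intergenic, nearest start Gm13481, chr2:47532001-47532100: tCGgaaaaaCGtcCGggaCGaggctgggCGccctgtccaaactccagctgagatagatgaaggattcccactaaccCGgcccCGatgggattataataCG
Intergenic, nearest start Dad1, chr14:54229101-54229200: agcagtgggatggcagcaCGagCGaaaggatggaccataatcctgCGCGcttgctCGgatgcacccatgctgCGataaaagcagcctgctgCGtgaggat

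Labels and libraries were checked first. Tiles within 1 kb of the starts of liver genes were lowest in liver for 9 of 9 genes with tiles, those of brain genes were lowest in brain for 13 of 17, and those of heart genes were lowest in heart for 12 of 15. Over the CpG-dense tiles, each library was correlated across tiles with the mean of its tissue. Pearson's r was 0.994 to 0.996 in liver, 0.988 to 0.994 in brain and 0.995 to 0.996 in heart. No pair of libraries was identical. Brain library 1 lay closer to heart than the other brain libraries. Over the CpG-dense tiles its r with the mean of heart was 0.975, against 0.953 to 0.963 for the other 5. Its r with the mean of brain was 0.991, within their range of 0.988 to 0.994. At the 863 CpG-dense tiles called between heart and brain without it, this library lay a median of 31.6% of the way from the other brain libraries to heart, and at 712 of them on the heart side. The other 5 brain libraries lay at -5.75% to 3.06%. These 5 took part in choosing the tiles and library 1 did not, so part of this gap follows from the choice. The main counts that involve brain are given with and without this library. The deposited tables give no read depth, so the precision of a single level is known only from the spread between libraries. At tiles below 20% the median SD between libraries was 1.26 points in liver, 0.920 in brain and 0.921 in heart. At tiles from 20% to below 80% it was 6.07, 7.25 and 4.99 points, and at tiles of 80% or more it was 2.14, 2.36 and 2.14 points.

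The levels of CpG-dense tiles away from starts were split between both extremes. In liver, 46.7% of the tiles were below 20%, 37.1% were at 80% or more and 16.2% lay between. In brain the shares below 20% and at 80% or more were 46.4% and 33.6%, and in heart 48.3% and 32.4%. Median levels were 31.6% (liver), 30% (brain) and 25.7% (heart). CpG-dense tiles within 2 kb of a start had medians of 1.12%, 0.750% and 0.900% in these tissues, and 97.1% to 97.6% of them were below 20%. Tiles away from starts with fewer than 7 CpGs had medians of 84.2%, 82.0% and 76.1%. The CpG-dense tiles away from starts were thus spread over both of these ranges, as the plot of level shares by class shows.

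**Figure D1:**
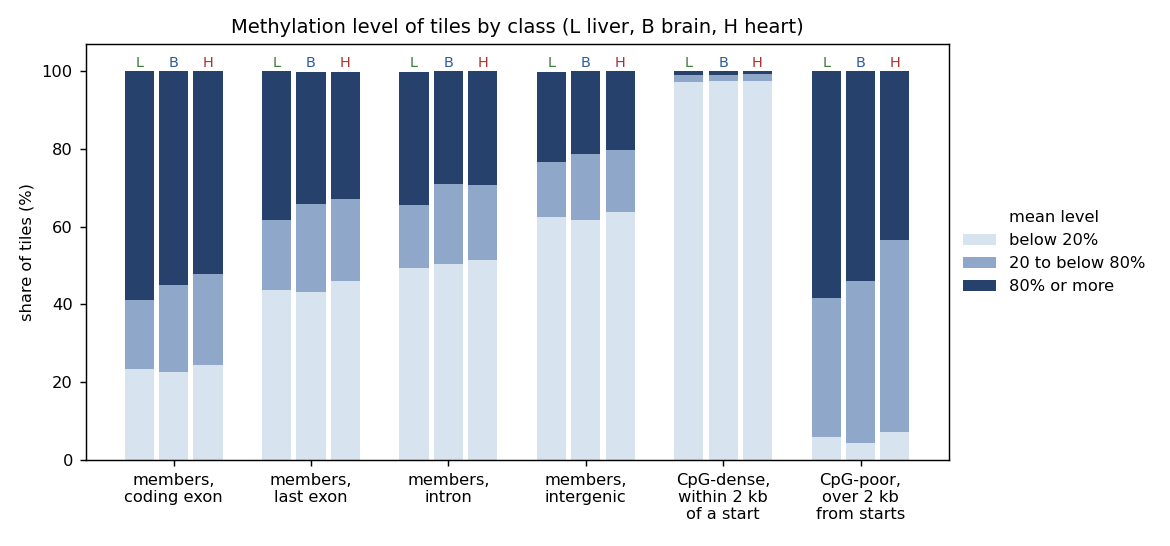
Share of tiles (vertical axis, %) with a mean level below 20%, from 20% to below 80%, and at 80% or more, in liver (L), brain (B) and heart (H), for 4 classes of CpG-dense tiles away from starts and for 2 comparison sets. In liver 58.9% of coding exon tiles were at 80% or more against 23.2% of intergenic tiles.

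Where a tile lay with respect to genes went with its level. Coding exon tiles had median levels of 88.9% in liver, 84.3% in brain and 82.2% in heart. Tiles in last exons had medians of 43.5%, 37.7% and 33.7%, and those in introns 21.5%, 18.8% and 15.8%. Intergenic tiles had medians of 5.11%, 4.90% and 3.37%. The small class of other exons, 86 tiles mostly of untranslated sequence and non-coding transcripts by its definition, had medians of 5.90%, 4.92% and 3.53%. Medians taken library by library fell from coding exon to last exon to intron to intergenic in 24 of 24 libraries, while intergenic tiles were above other exons in 10 of 24.

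The place of last exons in this order came from coding sequence. A tile that touched both a last exon and coding sequence was counted as last exon, and 2286 of the 2639 last exon tiles, or 86.6%, did so. Their medians were 47.3%, 40.5% and 35.9% in liver, brain and heart. The other 353 had medians of 11.2%, 17.3% and 12%. The order of last exons and introns also turned when predicted RefSeq transcripts were added, with liver medians of 45.9% and 56.7%, and with GENCODE starts, with 50.1% and 60%. When coding sequence was given precedence, the remaining last exon tiles were above introns in 2 of 24 libraries, and coding exons were still above introns, and introns above intergenic tiles, in 24 of 24.

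Liver had the highest median of the 3 tissues in each class, but in intergenic tiles its lead over brain turned with the choice of tiles: the liver and brain medians were 6.63% and 6.77% beyond 5 kb from starts, 11.5% and 13.5% with every RefSeq transcript, and 7.06% and 7.80% with GENCODE starts. In last exon tiles without coding sequence liver was lowest, as given above. In intragenic tiles, library medians ran from 67.5% to 72.1% with a median of 69.2% in liver, from 56.2% to 63.5% with a median of 61.5% in brain, and from 56.3% to 59.1% with a median of 58.0% in heart. The liver libraries lay above every brain and heart library, and the brain and heart ranges overlapped. In intergenic tiles the library medians were 4.70% to 6.90% in liver, 4.50% to 5.30% in brain and 3.5% to 4.2% in heart. Here liver and brain overlapped and heart lay below both. The heart was also the lowest tissue over all tiles, with a median of 71.9% against 80.8% in liver and 79.5% in brain.

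**Figure D2:**
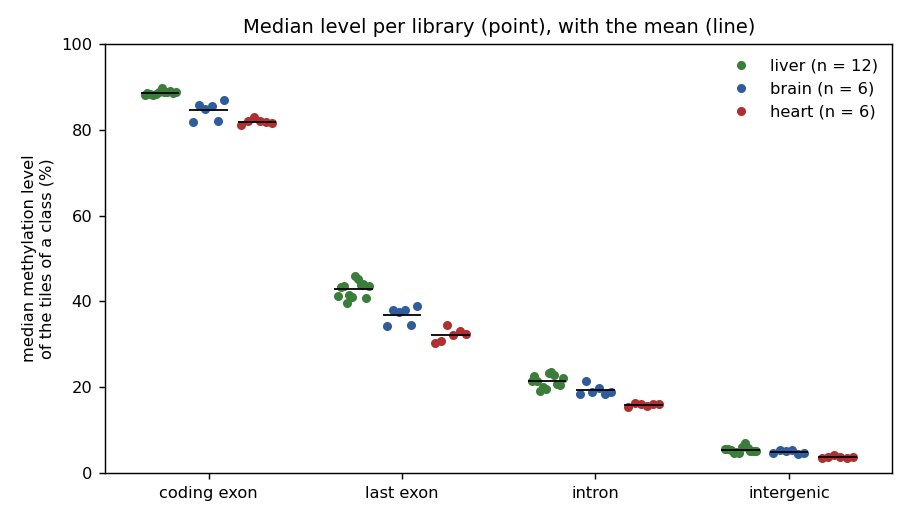
Median methylation level (vertical axis, %) of the CpG-dense tiles of 4 classes, with 1 point per library (12 liver, 6 brain, 6 heart) and a line at the mean of a tissue's libraries. The classes fall from coding exon to intergenic in each library, and the heart libraries lie below all others in intron and intergenic tiles.

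CpG density within the tiles went with lower methylation. Tiles with 7 CpGs had a median of 85.3% in liver, 79.6% in brain and 77.9% in heart. With 8 CpGs the medians were 67.7%, 60.4% and 57.1%, with 9 they were 16.9%, 17.0% and 12.5%, and with 15 or more they were 1.60%, 0.967% and 1.03%. The minimum of 7 CpGs therefore fell where levels were high, and tiles with 6 CpGs had medians of 87.8%, 83.6% and 81.8%. With 10 or more CpGs, intragenic medians were 4.40%, 4.41% and 2.77% and intergenic medians 1.81%, 1.20% and 1.30%. Intragenic tiles remained above intergenic tiles in this subset, but both were low.

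Levels were also lower where dense tiles lay side by side. Joined at gaps of up to 200 bp, the 15637 tiles formed 9837 runs, of which 7306 were single tiles and the longest held 19. Single tiles had a median of 88.7% in liver, 84.0% in brain and 83.0% in heart, while tiles in runs of 5 to 8 had medians of 2.53%, 1.85% and 1.57%. Of all the tiles, 52.8% were centred on a 500 bp window with island composition, that is with 50% or more G and C and a ratio of observed to expected CpGs of 0.6 or more. Tiles in such windows had a median of 3.78% in liver against 88.6% for those outside, 3.38% against 83.6% in brain and 2.42% against 82.7% in heart.

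Gene class and island composition each went with the level when the other was held fixed. In island windows, coding exon tiles had a median of 17.8% in liver, last exon tiles 9.57%, introns 2.67% and intergenic tiles 2.12%. Outside them the same classes had medians of 92.9%, 91.5%, 85% and 72.3%. Coding exons were above intergenic tiles in 24 of 24 libraries both inside and outside island windows. Island windows held 38.9% of the coding exon tiles, 68.0% of the last exon tiles, 46.1% of the intron tiles and 58.9% of the intergenic tiles.

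Distance from the nearest start was also related to the level. In coding exons the liver median was 40.3% at 2 to 5 kb from a start and 89.1% at 5 to 20 kb. In introns it was 4.04% at 2 to 5 kb, 29.0% at 5 to 20 kb and 70.5% at 20 to 100 kb. Intergenic tiles stayed low for longer, with liver medians of 2.71%, 3.83% and 6.51% over these ranges and 43.2% beyond 100 kb. At the 2 kb limit of the rule there was no jump, since tiles in the last 500 bp inside it had a liver median of 3.20% and those in the first 500 bp beyond it of 4.23%. At the masking limit, tiles with 40 to 49 masked bases had a liver median of 85.6% and those with 50 to 59 of 91.7%.

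**Figure D3:**
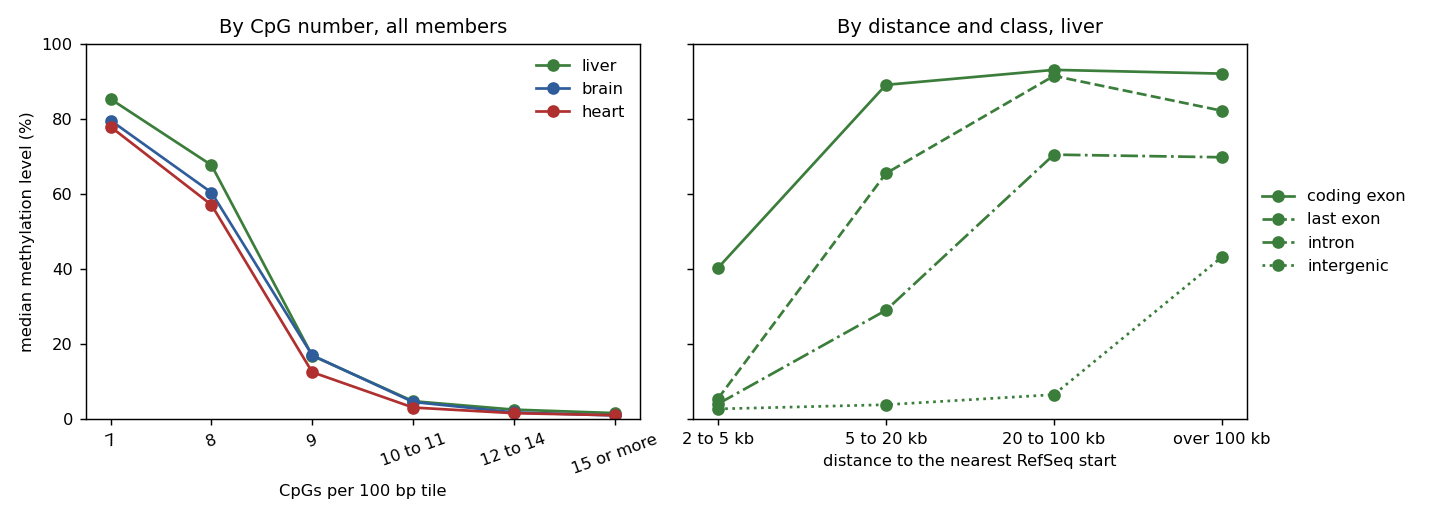
Median methylation level (vertical axis, %) by the number of CpGs in a tile for the 3 tissues (left), and by distance to the nearest start for 4 classes in liver (right). The liver median falls from 85.3% at 7 CpGs to 1.60% at 15 or more, and the intergenic median is 6.51% at 20 to 100 kb.

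Some of these tiles lie at starts that the curated set does not hold. A predicted RefSeq transcript started within 2 kb of 2861 tiles, and these had medians of 2.37%, 1.52% and 1.55% in liver, brain and heart against 61.6%, 53.9% and 49.9% for the other tiles. A GENCODE M21 transcript started within 2 kb of 5878 tiles, with medians of 10%, 10.2% and 6.92% against 57.2%, 49.4% and 45.5%. Of the intergenic tiles, 3078 had no start of any of these sets within 2 kb, and their medians were still low at 10.7% in liver, 12.8% in brain and 8.50% in heart.

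Pseudogenes formed a methylated group among the intergenic tiles. Pseudogenes are copies of genes that no longer code for a working protein, and processed pseudogenes carry over the CpG-rich coding sequence of their parent without its promoter. A GENCODE pseudogene covered 565 of the 5897 intergenic tiles, or 9.58%, with medians of 85.6% in liver, 84.7% in brain and 78.7% in heart. The other 5332 intergenic tiles had medians of 4.08%, 3.72% and 2.70%. Reads from such copies can map to a near-identical parent gene, so the levels of these 565 tiles are less certain.

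Across tissues most tiles kept their state. Of the 15637 tiles, 6651 or 42.5% were below 20% in all 3 tissues, 4435 or 28.4% were at 80% or more in all 3, and 1426 or 9.12% lay between in all 3. The highest and lowest tissue differed by less than 10 points at 10961 tiles, or 70.1%. The difference reached 25 points at 1828 tiles, or 11.7%, and 14 tiles went from below 20% in one tissue to 80% or more in another. Intergenic tiles were low in all tissues in 59.8% of cases and high in all in 17.9%, against 32.1% and 34.7% of intragenic tiles. A range of 25 points or more was found at 14.6% of intragenic tiles and 6.85% of intergenic tiles.

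Tissues were then compared tile by tile. A limma model was fitted to all 758685 tiles, and a tile was called when its Benjamini-Hochberg adjusted p was 0.01 or less and its tissue means differed by at least 25 percentage points. The libraries are the replicates. The brain and heart libraries came from the same mice, which were also among the liver mice, so the tissue groups are not of separate animals. The model took them as unpaired. Between brain and liver 1233 CpG-dense tiles away from starts were called, or 7.89%, where 9.80% of all tiles were called. Of these, 405 (2.59%) were higher and 828 (5.30%) lower in brain, against 4.76% and 5.04% of all tiles. Without brain library 1 the count was 1287 (8.23%), with 450 higher and 837 lower, and 1212 of them were among the 1233. Between heart and liver 1051 were called, or 6.72% against a background of 10.8%, with 266 (1.70%) higher and 785 (5.02%) lower in heart against 2.87% and 7.94% of all tiles. Between heart and brain 771 were called, or 4.93% against 9.47%, with 338 (2.16%) higher and 433 (2.77%) lower in heart against 1.76% and 7.71%. Without brain library 1 this count was 863 (5.52%), with 362 higher and 501 lower, including 763 of the 771.

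The share called was thus below the background of all tiles in each of the 3 comparisons. It lay between those of the comparison sets. CpG-dense tiles near starts were called at 0.689%, 0.622% and 0.301% in brain against liver, heart against liver and heart against brain, and CpG-poor tiles away from starts at 13%, 14.6% and 12.4%. The balance of directions differed from that of all tiles in both comparisons with brain. In brain against liver 32.8% of the called CpG-dense tiles and 48.6% of all called tiles were higher in brain, and in heart against brain 43.8% and 18.5% were higher in heart. In heart against liver the shares were 25.3% and 26.5%. In called CpG-dense tiles near starts the shares were 26.8% in brain against liver, 44.4% in heart against brain and 19.1% in heart against liver. In called CpG-poor tiles away from starts they were 45.9%, 19.7% and 24.9% in the same order. The difference from all tiles in the comparisons with brain was thus shared by CpG-dense tiles near starts. The median difference of heart minus brain was -3.0 points over all tiles and -0.417 points over the CpG-dense tiles, many of which are near 0% in both tissues.

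Intragenic tiles were called more often than intergenic ones. In brain against liver 967 intragenic tiles (9.93%) and 266 intergenic tiles (4.51%) were called. In heart against liver the counts were 835 (8.57%) and 216 (3.66%), and in heart against brain 578 (5.93%) and 193 (3.27%). Of all tiles 9.80%, 10.8% and 9.47% were called in these 3 comparisons. The intragenic share was thus near that of all tiles in brain against liver and below it in the others. The intergenic share was below it in each. Without brain library 1 the counts were 1010 (10.4%) and 277 (4.70%) in brain against liver, where 10.1% of all tiles were called. In heart against brain they were 655 (6.72%) and 208 (3.53%), where 10.5% of all tiles were called. Introns were called at 10.3%, 9.66% and 6.01% in the 3 comparisons, coding exons at 9.72%, 8.02% and 6.76%, and last exons at 10%, 8.26% and 4.59%. The share called in brain against liver fell from 9.90% at 7 CpGs to 2.88% at 15 or more, and it was 6.08% in island windows against 9.91% outside them. Intergenic tiles in pseudogenes were called at 1.77%, 2.30% and 1.24%.

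**Figure D4:**
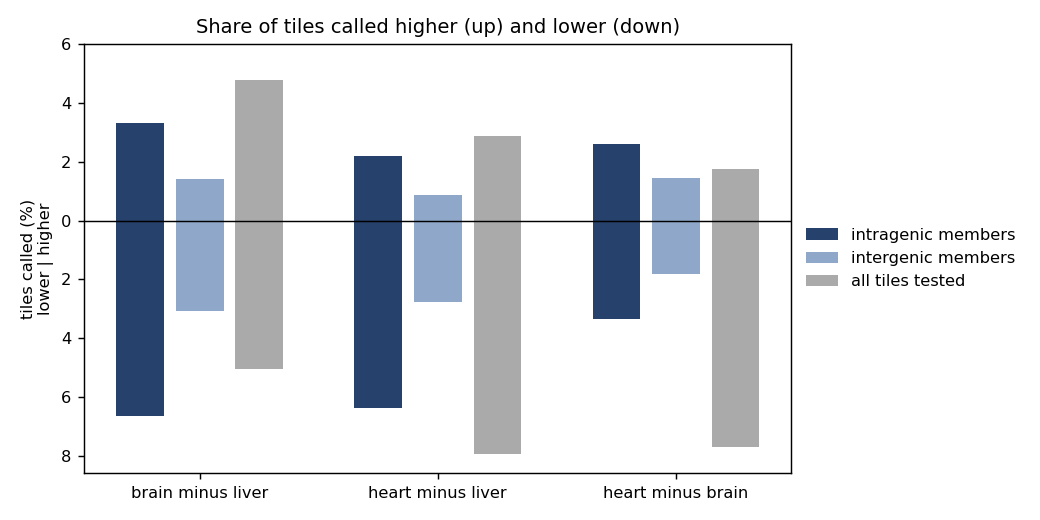
Share of tiles (vertical axis, %) called higher (above 0) and lower (below 0) in the first-named tissue of each comparison, for intragenic and intergenic CpG-dense tiles away from starts and for all tiles tested. In brain against liver 6.63% of intragenic, 3.09% of intergenic and 5.04% of all tiles were lower in brain.

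In all, 1826 CpG-dense tiles away from starts were called in at least 1 comparison, 1423 intragenic and 403 intergenic. Among these tiles liver was the tissue that stood apart from both others most often, being higher at 421 tiles and lower at 179. Brain was higher than both others at 145 and lower at 240. Heart was higher than both at 47 and lower at 197. Without brain library 1 the counts were 414 and 181 for liver, 172 and 254 for brain, and 50 and 225 for heart. These counts compare each tissue with groups that are shared between the comparisons. The same counts were not made over all tiles, so whether liver stood apart more often in this part was not tested. Liver also had more libraries than brain or heart.

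The runs with the most called tiles of a comparison, direction and class are described next, starting with those higher in liver. The longest was in an intron of Zmiz1, which encodes a transcriptional coregulator of the PIAS-like family, at chr14:25606801-25608300. Its 12 tiles with 157 CpGs had a mean level in liver that ran from 37.6% to 48.9% over libraries with a median of 43.0%. In brain the range was 0.583% to 0.825% with a median of 0.738%, and in heart it was 0.708% to 1.20% with a median of 0.858%. No liver library came near the others, and all 12 tiles were called lower in both brain and heart. At the tile printed above, brain minus liver was -50.8 points (SE 2.61, limma adjusted p = 1.1e-14). The run held a start of both the predicted RefSeq and the GENCODE set, so it is away from starts only by the curated set. The same held for the GENCODE set at the runs of Dchs1, Sipa1, Sh2b3 and Jph3 described next, each of which held a GENCODE start, while their nearest predicted RefSeq starts were more than 5 kb away. The nearest GENCODE start was 1170 bp from the Zfpm1 run, 1496 bp from that of Sema6c and 2000 bp from that of Sema6b. The other intragenic runs described next lay more than 2 kb from every GENCODE start.

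A run in the last exon of Fbrsl1 at chr5:110363001-110363800 gave a similar order. Its 8 tiles ranged from 51.9% to 62.1% in liver with a median of 56.7%, from 12.8% to 21.9% in brain with a median of 14.2%, and from 6.53% to 7.80% in heart with a median of 7.32%. All 8 tiles were called lower in brain and in heart than in liver, by a mean of 41.3 and 49.6 points. In the last exon of Myorg, a gene for a glycosidase, at chr4:41497601-41498900, the 9 tiles had a mean of 59.4% ± 2.72 (SD, n = 12) in liver, 35.3% ± 4.38 (n = 6) in brain and 21.3% ± 2.25 (n = 6) in heart. All 9 were called lower in heart than in liver.

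Runs in which brain was lowest included the last exon of Zfpm1 and a coding exon of Sh2b3. Zfpm1 encodes FOG1, a zinc finger cofactor of GATA transcription factors. Its 9 tiles at chr8:122335801-122337100 ran from 90.0% to 93.9% in liver with a median of 91.7%, from 26.8% to 48.4% in brain with a median of 36.9%, and from 81.9% to 87.2% in heart with a median of 84.4%. The highest brain value was that of library 1, and the mean of the other 5 brain libraries was 34.2%. All brain libraries nevertheless lay below every liver and heart library, 8 of the 9 tiles were called lower in brain than in liver, and 8 of the 9 lower than in heart. At the printed tile, brain minus liver was -68.0 points (SE 2.92, limma adjusted p = 4.0e-16).

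Sh2b3 encodes an adaptor protein that restrains cytokine receptor signalling. Its 7 tiles at chr5:121828401-121829100 had a different level in each tissue. They ran from 83.6% to 87.6% in liver with a median of 86.3%, from 16.1% to 27.2% in brain with a median of 22.1%, and from 53.0% to 56.1% in heart with a median of 53.7%. The highest brain value was that of library 1, and without it the brain mean was 20.9%. The 3 ranges did not overlap, and all 7 tiles were called higher in heart than in brain. The difference was 37.3 points at the printed tile (SE 2.80, limma adjusted p = 9.2e-11).

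Several coding runs were lower in liver than elsewhere. Sema6b and Sema6c encode transmembrane semaphorins, a family known for guiding axons. The 8 last exon tiles of Sema6b at chr17:56124001-56124900 had a mean of 14.5% ± 2.22 (SD, n = 12) in liver, 50.9% ± 1.56 (n = 6) in brain and 41.2% ± 3.82 (n = 6) in heart, and all 8 were called higher in brain than in liver. The run is 2055 bp from the start of Lrg1, just beyond the 2 kb limit. The 14 last exon tiles of Sema6c at chr3:95172301-95173800 had means of 24.6% ± 1.33 in liver, 53.4% ± 3.37 in brain and 37.1% ± 2.13 in heart, with 8 called higher in brain than in liver. In Dchs1, which encodes a large protocadherin that binds Fat4, the 8 coding exon tiles at chr7:105762101-105762900 ran from 12.5% to 19.4% in liver, from 49.4% to 51.8% in brain and from 40.8% to 49.8% in heart. Of these 8 tiles, 7 were called higher in brain and 7 higher in heart than in liver. A pseudogene in the GENCODE set also covers part of the Dchs1 run.

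The run of Sipa1 was higher in heart than in both other tissues. Sipa1 encodes a protein that activates the GTPase function of Rap1. Its 7 tiles at chr19:5654001-5654900, in coding exon and intron, ran from 50.1% to 57.4% in heart with a median of 52.0%, from 17.7% to 25.9% in liver with a median of 20.3%, and from 9.19% to 15% in brain with a median of 11.2%. All 7 were called higher in heart than in brain and 6 higher than in liver. At the printed tile, heart minus brain was 46.1 points (SE 3.34, limma adjusted p = 4.8e-11). In the last exon of Zfp503, a zinc finger gene, the 4 tiles of the run at chr14:21984901-21985500 had means of 11.6% ± 2.36 in liver, 31.3% ± 6.47 in brain and 43.4% ± 5.95 in heart, and all 4 were called higher in heart than in liver. Brain libraries ran from 25.4% to 41.5% and heart libraries from 35.2% to 51.9% there, so these 2 tissues overlapped, and brain library 1 was the highest of brain.

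Brain was higher at coding exons of Disp3, Srcin1 and Jph3. Disp3 encodes a membrane protein related to Patched and Dispatched. Its 6 tiles at chr4:148271401-148272100 ran from 39.4% to 49% in brain with a median of 45.2%, from 6.93% to 13.3% in liver with a median of 9.67%, and from 8.05% to 10.3% in heart with a median of 8.81%. The lowest brain value was that of library 1, still far above the other tissues, and 5 of the 6 tiles were called lower in heart than in brain. Srcin1 encodes a synaptic scaffold protein that inhibits Src. Its 6 tiles at chr11:97534501-97535100 spread from 20.2% to 44.0% among brain libraries, with 3.28% to 6.90% in liver and 1.10% to 2.05% in heart, and all 6 were called lower in heart than in brain. Jph3 encodes junctophilin 3, which ties the plasma membrane to the endoplasmic reticulum in neurons. The 6 tiles at chr8:121753101-121753800 had means of 71.8% ± 5.75 in brain, 47.1% ± 3.35 in liver and 41.7% ± 3.08 in heart, with 5 called lower in heart than in brain. Library 1 was the lowest of brain there, at 62.0%.

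**Figure D5:**
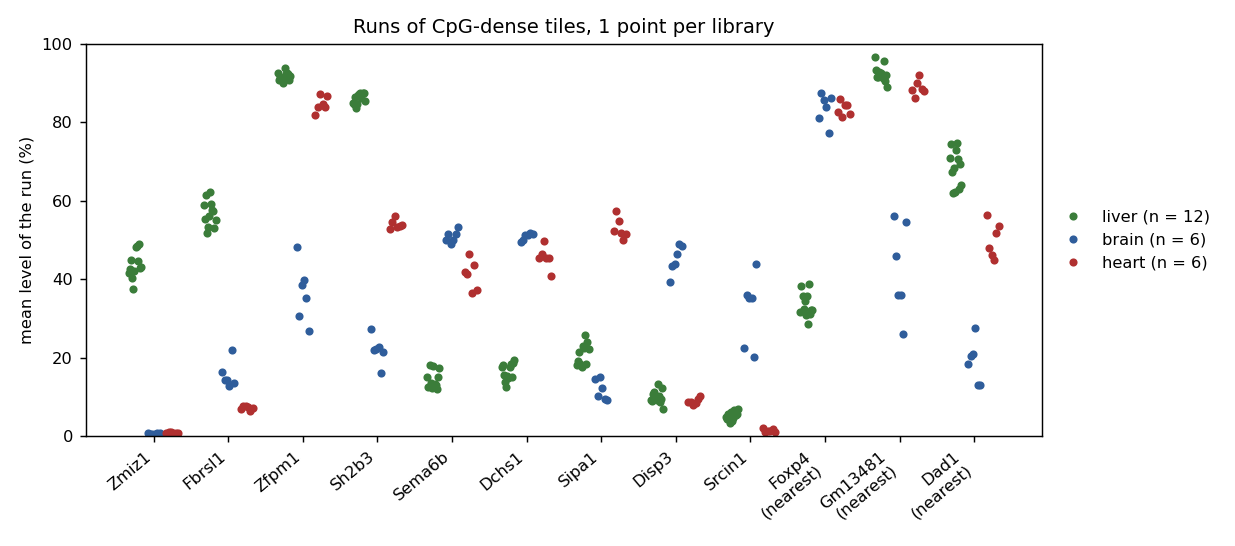
Mean methylation level (vertical axis, %) over the tiles of 12 runs, named by the gene covering them or, where marked, the gene with the nearest start, with 1 point per library (12 liver, 6 brain, 6 heart). The Zmiz1 run lies at 37.6% to 48.9% in liver and at or below 1.20% in every brain and heart library.

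The intergenic runs with the most called tiles were mostly shorter, with 2 to 4 tiles each. The run at chr17:47936201-47936500, whose nearest start is that of the forkhead gene Foxp4 at 11569 bp, had means of 33.5% ± 3.10 (SD, n = 12) in liver, 83.7% ± 3.83 (n = 6) in brain and 83.6% ± 1.70 (n = 6) in heart. All 3 of its tiles were called higher in brain and in heart than in liver, by 61.0 points in brain at the printed tile (SE 2.76, limma adjusted p = 9.6e-16). It lies in the processed pseudogene Gm5228, 111 bp from its start in the GENCODE set. A run at chr4:32964801-32965000 with means of 51.0%, 92.1% and 86.2% in liver, brain and heart and one at chr4:116840101-116840400 with 46.7%, 38.0% and 12.4% also lie in processed pseudogenes, Gm11942 and Rpl36-ps8. Their nearest curated starts are those of Ankrd6 and Hpdl, and both runs hold a GENCODE start. At the run nearest to Hpdl, brain library 1 was the lowest of brain, at 29.0%.

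A pair of intergenic runs outside any GENCODE gene were lower in brain. The first, at chr2:47532001-47532200, is 925065 bp from the nearest curated start. It ran from 89.0% to 96.7% in liver, from 26.1% to 56.2% in brain and from 86.2% to 92.0% in heart. The highest brain value was that of library 1, and without it the brain mean was 39.7%. The second, at chr14:54229101-54229300, is 24629 bp from Dad1, which encodes a subunit of the oligosaccharyltransferase. It had means of 68.3% ± 4.67 in liver, 18.9% ± 5.54 in brain and 50.2% ± 4.56 in heart, and its ranges did not overlap between tissues. Both runs had 2 tiles, and both tiles were called in brain against liver and in heart against brain. Another run of 2 tiles, at chr10:121247101-121247300, was lower in heart, with means of 87.7% ± 2.16 in liver, 59% ± 11.8 in brain and 33.4% ± 4.45 in heart. Its lowest brain value was that of library 1, at 44.0%, and without it the brain mean was 62.0%.

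The other intergenic runs chosen by the same rule had 2 called tiles each, apart from 1 with 3. Near Gata2, a transcription factor gene of blood formation, 2 of 4 tiles at chr6:88190501-88191000 were called higher in heart than in liver, and the run had means of 13.3% ± 2.24 in liver, 38.6% ± 4.06 in brain and 35.5% ± 2.49 in heart. It lies in the GENCODE long non-coding RNA gene Gm38708 and holds a GENCODE start. Near Tent5c, the gene of a poly(A) polymerase, the 2 tiles at chr3:100495501-100495800 had means of 40.8% ± 5.40, 79.1% ± 15.4 and 91.4% ± 1.46, and lie in the long non-coding RNA gene Gm12474, close to a predicted RefSeq start. The run nearest to Mir7240 had 58.9%, 20.6% and 15.8%, and lies in Mast3 in the GENCODE set. The run nearest to E130006D01Rik, with 3 of 4 tiles called lower in brain than in liver, had 67.7%, 38.6% and 57.6%. The run nearest to 1110028F18Rik had 9.54% in liver, 48.5% in brain and 19.2% in heart, and brain library 1 was lowest of the brain libraries at 27.6%. In the GENCODE set it lies in Gm10073, annotated as a coding gene, 61 bp from a start. Part of its tile at chr8:106573301-106573400 is the reverse complement of part of the tile at chr4:32964901-32965000 in the pseudogene Gm11942. The caution on reads from near-identical copies therefore applies to this run as well. The runs nearest to 4931429L15Rik, Gm30529 and Gm27239 had 70.4%, 49.6% and 58.3% in brain and 43.8%, 20.9% and 91.3% in heart. Library 1 was the brain library nearest to heart in each of them, at 61.0%, 41.6% and 73.2%.

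Gene lists chosen for the tissues and for known kinds of CpG-dense sequence gave the following counts, to be read against the shares called in brain against liver, heart against liver and heart against brain, which were 7.89%, 6.72% and 4.93% of the 15637 tiles and 9.80%, 10.8% and 9.47% of all tiles. Without brain library 1 the counts of a list moved by at most 4 in either direction. A tile was counted for the gene covering it or, if intergenic, for the gene with the nearest curated start at any distance. The tiles of a gene therefore need not lie inside it. Intragenic tiles numbered 473 in the homeobox list, 381 in the other developmental list, 197 in the cardiac, 36 in the liver and 44 in the imprinted list. Homeobox transcription factor genes, which pattern the embryo and many of which lie in long unmethylated domains, held 832 of the tiles in 136 of 184 genes, and 81.7% of these were below 20% in all 3 tissues, against 42.5% of all 15637. In brain against liver 11 were called higher and 16 lower (3.25% in all), in heart against liver 9 and 10 (2.28%), and in heart against brain 8 and 6 (1.68%). The most tiles were in Zfhx3 with 32, Uncx with 24 and Otp with 22. The 22 tiles of Otp, a gene of hypothalamic neurons, had levels of 0.917% to 9.92% in liver, and the 32 of Zfhx3 ranged from 0.292% to 98.2%.

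Other developmental transcription factor genes held 754 tiles, of which 65.8% were below 20% in all tissues. Here 13 were called higher and 62 lower in brain than in liver (9.95%), and 14 higher and 45 lower in heart than in liver (7.82%). Between heart and brain 26 were higher and 13 lower (5.17%). The first share is near the 9.80% of all tiles and the second below their 10.8%. Casz1, Bcl11b and Ebf3 held the most, with 27, 25 and 21 tiles, of which at most 1 was called in any direction of the comparisons with liver.

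Genes of synapses and neuronal channels held 414 tiles, 390 of them intragenic. Their median level was highest in brain, at 35.3%, with 26.1% in liver and 21.1% in heart. In brain against liver 24 were called higher and 10 lower (8.21%), in heart against liver 6 and 15 (5.07%), and in heart against brain 7 and 22 (7%). These shares are below those of all tiles, and in brain against liver near the 7.89% of the 15637 tiles. The median difference per tile was 0.721 points for brain minus liver and -4.01 points for heart minus brain, where these were -0.517 and -0.417 over the 15637 tiles. Shank1, which encodes a scaffold of the postsynaptic density, had 23 tiles whose mean over a library was 22.9% to 28.9% in brain and 12.6% to 14.4% in liver. Nrxn2, which encodes a presynaptic adhesion protein, had 26 tiles with library means of 20% to 25.5% in brain and 12.4% to 13.6% in liver. In Cacna1a, a calcium channel gene with 20 tiles, brain and liver overlapped at 33.8% to 39.7% and 31.5% to 35.9%, and 0 tiles were called between them by limma, on either the fraction or the logit scale. At an unadjusted p under 0.05, 10 of its tiles were higher and 3 lower in brain, and the share of all tiles below this p was not counted.

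Cardiac genes held 249 tiles, of which 2 were called higher and 29 lower in heart than in liver (12.4%), 5 higher and 18 lower in brain than in liver (9.24%), and 9 higher and 10 lower in heart than in brain (7.63%). The share in heart against liver compares with 6.72% of the 15637 tiles and 10.8% of all tiles, and the other shares were below those of all tiles. The most tiles were in Speg, a kinase gene of striated muscle, with 19, and in the transcription factor genes Irx5 and Tbx2 with 18 and 14. At Tbx2, where 9 of the 14 tiles were intragenic, the library means were 16.8% to 19.5% in heart, 8.62% to 13.4% in liver and 5.05% to 9.86% in brain. Liver genes held 66 tiles, with 6 called higher and 7 lower in brain than in liver (19.7%), 5 and 7 in heart against liver (18.2%), and 2 and 2 in heart against brain (6.06%). Foxa1, a pioneer transcription factor of the liver, was assigned 12 tiles, 4 of them intragenic. Their library means were 9.62% to 15.3% in liver, 2.17% to 3.32% in brain and 2.08% to 3.05% in heart. Of the 12 tiles, 2 were called lower in brain and 2 lower in heart than in liver. Nr5a2, with 7 tiles, had library means of 37.5% to 40% in liver, 34.9% to 37.2% in brain and 35.9% to 38.5% in heart. Foxa2, with 6 tiles, had 1.13% to 4.25%, 2.93% to 4.90% and 2.08% to 3.28% in liver, brain and heart. Of the 7 tiles of Nr5a2, 4 were intragenic, and the 6 tiles of Foxa2 were all intergenic. Neither gene had a tile called by limma on either scale. At an unadjusted limma p under 0.05 each had 2 tiles that differed between brain and liver, lower in brain in Nr5a2 and higher in Foxa2. No share of all tiles below this p was counted for comparison. The 66 tiles are few, so each share of this list rests on 13 calls or fewer. Clustered protocadherins held 5 tiles, of which 2 were called, both in Pcdhgc5 and higher in heart than in liver, and the other 3 were assigned to Pcdha1 and Pcdha4 alike.

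Imprinted loci, where 1 parental copy is methylated, held 72 tiles in 23 of 61 genes. Of these tiles, 33.3% were below 20% in all 3 tissues and 27.8% were at 80% or more in all 3, so many were not at a middle level. In brain against liver 0 were called higher and 7 lower by limma (9.72%), and in heart against liver 0 and 5 (6.94%). At an unadjusted limma p under 0.05 the counts were 4 and 36 in the first comparison and 2 and 43 in the second. The share of all tiles below this unadjusted p was not counted, so these counts have no background to be read against. The limma fit on the logit scale called as many tiles in both comparisons, 7 and 5. In heart against brain 3 were called higher and 1 lower (5.56%). Of all tiles 9.80%, 10.8% and 9.47% were called in these 3 comparisons, so the first share was near that of all tiles and the others below it. Of the 15637 tiles 7.89%, 6.72% and 4.93% were called, and each share of this list was above these. Each rests on 7 calls or fewer. The most tiles were assigned to Cdkn1c with 12, all intergenic, to Trappc9 with 7 and to Dlk1 with 6. The runs whose tiles all lay between 20% and 80% in every tissue were at Gnas, Grb10, Dlk1, H19, Zdbf2, Igf2r and, with 2 runs, Cdh15. The 4 tiles at Gnas, at chr2:174299901-174300500, had means of 44.7% ± 2.88 in liver, 37.8% ± 3.88 in brain and 39.0% ± 2.23 in heart. The 3 intronic tiles of Grb10 had 46.0% ± 6.14, 40.5% ± 5.24 and 46.3% ± 5.49, and the intergenic tile near H19 had 45.6% ± 7.23, 42.0% ± 7.80 and 50.2% ± 6.25. None of these 3 runs held a called tile. The last exon run of Dlk1 had 53.9% ± 3.81 in liver, 27.8% ± 8.44 in brain and 26.9% ± 2.67 in heart, and both of its tiles were called in at least 1 comparison. The Dlk1 run and the intergenic run of Cdh15 held a GENCODE start, and the Grb10 run lay 424 bp from one. At Cdh15 the coding run spread widely between libraries of a tissue, from 46.2% to 93.5% in liver.

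Over all loci, 249 tiles in 203 runs lay at 35% to 65% in every tissue, and 11 runs held 3 or more of them. Besides Gnas and Grb10, these 11 included last exon runs of Dact3, an antagonist in Wnt signalling, and of Clec3b, Lingo3 and Cbx6, and a coding run of Efna2, which encodes an ephrin ligand. At Clec3b the 3 tiles had 48.5% ± 5.34 in liver, 42.4% ± 3.85 in brain and 50.3% ± 3.53 in heart. The other 4 of the 11 runs were intergenic, nearest to Gm5784, Zfp992, Rex2 and Aasdhppt. Those nearest to Gm5784, Zfp992 and Rex2 held a GENCODE start. These runs were picked out by their levels, which are given as a description.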

How the data were processed

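The data were 12 liver, 6 brain and 6 heart libraries of enhanced RRBS. Mapping was done by a sequencing service. The submitters' processing notes name Bismark, methylKit and mm10, and the authors combined calls into 100 bp tiles with a minimum coverage in all replicates of a tissue. The deposited tables give a methylation fraction per tile and library, without read counts, so depth and counting error are unknown. Libraries were not normalized to each other. Libraries of a tissue came from separate mice. For 2 mice the labels give opposite sexes in different tissues, and sex was not used.

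Tiles were joined on position over the 3 tables. CpGs, soft-masked bases and 500 bp windows were read from GRCm38.p6, and starts and exons from its RefSeq annotation with 43783 curated autosomal transcripts. Predicted RefSeq and GENCODE M21 transcripts were used for comparison. A tile went to the first of last exon of a multi-exon transcript, coding exon, other exon, intron and intergenic. Levels are means of fractions, given in percent. limma 3.58.1 in R 4.3.3 (lmFit, eBayes with trend) was fitted to the fractions of 758685 tiles and 24 libraries, with Benjamini-Hochberg adjustment over all tiles, and tested on simulated data. The logistic test of the study needs read counts and was not run.

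Tiles up to 200 bp apart were joined to runs. For each comparison, direction and class, the 3 runs with the most called tiles are named, ties going to the larger mean difference. Imprinted runs with every tile at 20% to 80% and the 3 genes with the most tiles of each list are also named from the lists. The 11 runs at 35% to 65%, and the pseudogene overlap, were chosen after the values were seen. Sequences are from RefSeq's GRCm38.p6. The tiles and lists were chosen with earlier results of these data known. Python 3.11.15, numpy 2.4.6 and pandas 2.3.3 were used.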

Additional observations from a re-analysis of the deposited data

Results flagged for a closer look

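For the groups of 6 libraries, 64 sets of run means and class medians were searched for a single library far from the others, by the gap to its nearest neighbour relative to the whole range. Chance marks about 1 in 20 such groups, and 3 were marked here. At the run nearest to Tent5c, brain library 6 had a mean level of 49.4% while the other brain libraries lay at 75.2% to 89.2%. At the same run heart library 4 had 94.2%, with the others at 90.3% to 91.5%. At the coding run of Jph3, heart library 3 had 47.7%, with the others at 38.9% to 42.0%. In each case the library stayed on its tissue's side of the difference described for that run. At Tent5c the highest liver library was at 48.2%.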

How the results depend on the processing

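No paired analysis was possible because the columns carry no mouse number. Calls between tissues hardly moved with the scale of the fit: on the logit scale 1230, 1049 and 768 CpG-dense tiles were called in brain against liver, heart against liver and heart against brain, all among those of the original fit. With 2 tissues per fit the counts were 1231, 1051 and 766. With 10 or more CpGs, 4.40% were called in heart against liver. Medians over tiles moved by more than the spread between libraries with the choice of tiles, and intragenic stayed above intergenic in every tissue under each choice. For liver, brain and heart, intragenic medians were 4.40%, 4.41% and 2.77% with 10 or more CpGs, 85.6%, 78.7% and 76.6% beyond 5 kb, 77.4%, 69.1% and 66.4% with every RefSeq transcript, and 79.1%, 72.1% and 68.8% with GENCODE starts, the last chosen after the data were seen, as was leaving out brain library 1. With no soft-masked base they were 71.4% in liver and 60.1% in heart. Intergenic medians were, in the same order, 1.81%, 1.20% and 1.30%, then 6.63%, 6.77% and 4.47%, then 11.5%, 13.5% and 9.43%, then 7.06%, 7.80% and 4.77%, and 4.40%, 4.08% and 2.87% with no soft-masked base. The sets held 4729, 12154, 12776, 10002 and 12850 tiles, and the GENCODE set shared 62.4% of the original tiles. The order of tissues was less stable. Brain was above liver in intergenic tiles beyond 5 kb, with every RefSeq transcript and with GENCODE starts, and in intragenic tiles with 10 or more CpGs. The shares called stayed below those of all tiles.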
